A study of Mus musculus with 6 samples.

Results

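The genes described here are those of the endoplasmic reticulum (ER) stress response, of the ATF4 programme and of cytosolic tRNA charging, followed in 2 stable clones of RAW264.7, an established mouse macrophage line. They were taken from a list of 40 gene symbols, matched to the array's annotation with synonyms accepted. Of the 40, 39 had a probe set, out of 16387 named genes on the array. Pycr1 was not found among the named probe sets and was not analysed here. Mars was found under its current symbol Mars1. The 39 genes fall into 5 sub-groups, namely 10 ER chaperones and folding helpers, 7 transcription factors and regulators, 6 genes of amino acid supply and other ATF4 targets, 5 enzymes of serine synthesis and one-carbon metabolism, and 11 cytosolic tRNA synthetases.

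The vector group was clone 3, stably transfected with the empty expression plasmid, and the Ms4a8a group was clone 8, transfected with the same plasmid carrying a recombinant Ms4a8a cDNA. The design text gives Ms4a4a as the name of what clone 8 expressed. Both clones had been selected with blasticidin and grown for 48 h in serum-containing medium with added pyruvate and non-essential amino acids, and each was hybridised to 3 arrays, numbered 1, 2 and 3 in both clones. Each arm was 1 clone, so the transgene cannot be told apart from clonal differences. What a number marks is not stated, nor is whether same-clone arrays were separate cultures. The p-values therefore measure only how these arrays vary, and that variation may be technical. Ms4a8a itself read 3.07, 3.32 and 3.22 on the log2 scale on the vector arrays, against 7.40, 7.90 and 8.15 on the Ms4a8a arrays, which matches the labels. Of 11 macrophage markers 10 were measured, and their median level lay between 11.7 and 12.6 on every array. On the arrays of numbers 1 and 2, Fcgr3 (5.93 to 7.42), Adgre1 (6.76 to 7.36) and Itgam (6.19 to 7.57) lay far below that median. All other measured macrophage markers read at least 11.09 on every array. The median level of the lymphocyte, fibroblast or epithelium, and granulocyte or mast cell markers lay between 3.42 and 4.37. The table's values run from 2.24 to 14.61, and levels of different probe sets do not compare as amounts of RNA.

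Proteins that enter the ER are folded by chaperones, and when unfolded protein accumulates the sensors ATF6, IRE1 and PERK are engaged. ATF6 and the spliced form of XBP1, which IRE1 produces, raise the transcription of chaperone genes. PERK belongs to a group of kinases that phosphorylate the translation factor eIF2 alpha, and amino acid shortage (through GCN2) and haem shortage (through HRI) act on the same factor. Phosphorylated eIF2 alpha slows protein synthesis while favouring translation of ATF4, a transcription factor that raises genes of amino acid uptake, serine synthesis and tRNA charging as well as the regulators Ddit3 (CHOP) and Trib3. ATF4 is controlled to a large part through its translation, and XBP1 through splicing, so that the amounts of their transcripts do not measure their activity.

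Promoter sequences are shown because the ATF6 and XBP1 branch and the ATF4 branch are known to act through different elements. Windows from 250 bases before to 50 bases after the transcription start were taken from RefSeq for mouse build GRCm38.p6, and 34 of the 39 genes had one. They were searched on both strands for the ER stress response element (ERSE, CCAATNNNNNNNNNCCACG), the shorter ERSE-II (ATTGG, any 1 base, then CCACG), the unfolded protein response element (UPRE, TGACGTGG) and the core of the C/EBP-ATF response element that ATF4 binds (CARE, TGATGNAA). The ERSE and ERSE-II share their CCACG end but no match of one overlapped a match of another. An ERSE was found in 5 of the 9 chaperone genes with a window (Hspa5, Hsp90b1, Pdia6, Dnajc3 and Creld2) and in none of the other sub-groups, against 0.119% of the 32851 promoter windows in the table. An ERSE-II was found in Herpud1 alone (0.0365% of all windows), and no member window held the UPRE (0.676%). The CARE core was found in 10 genes, namely Herpud1, Nupr1, Trib3, Asns, Chac1, Aars, Gars, Iars, Tars and Yars, which include 5 of the 8 synthetase genes with a window (3.97% of all windows). No serine synthesis gene had any of the 4 motifs in its window. A match describes the letters and is not evidence of binding.

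Whole windows are given for 3 genes that represent an ERSE, both kinds of element together, and a CARE. Each is printed on the strand of its gene, with the motif in capitals. The ERSE of Hspa5 (chr2:34771840-34772139, plus strand) starts at position -65, counted from the transcription start. In Herpud1 (chr8:94386179-94386478, plus strand) the CARE, here on the opposite strand, starts at position -112 and the ERSE-II at position -52. In Nupr1 (chr7:126625421-126625720, minus strand) the CARE, also on the opposite strand, starts at position -110.
Hspa5: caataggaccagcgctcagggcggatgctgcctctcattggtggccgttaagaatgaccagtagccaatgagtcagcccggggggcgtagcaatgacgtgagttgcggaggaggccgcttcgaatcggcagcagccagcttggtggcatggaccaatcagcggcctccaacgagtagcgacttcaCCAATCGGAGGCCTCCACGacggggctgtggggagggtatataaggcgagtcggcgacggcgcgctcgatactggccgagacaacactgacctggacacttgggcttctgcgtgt
Herpud1: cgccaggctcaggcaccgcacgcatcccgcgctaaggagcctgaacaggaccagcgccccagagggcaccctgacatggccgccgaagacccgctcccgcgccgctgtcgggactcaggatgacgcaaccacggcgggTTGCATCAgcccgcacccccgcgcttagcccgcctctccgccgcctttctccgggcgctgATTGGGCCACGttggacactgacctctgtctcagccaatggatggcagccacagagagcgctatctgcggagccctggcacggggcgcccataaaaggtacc
Nupr1: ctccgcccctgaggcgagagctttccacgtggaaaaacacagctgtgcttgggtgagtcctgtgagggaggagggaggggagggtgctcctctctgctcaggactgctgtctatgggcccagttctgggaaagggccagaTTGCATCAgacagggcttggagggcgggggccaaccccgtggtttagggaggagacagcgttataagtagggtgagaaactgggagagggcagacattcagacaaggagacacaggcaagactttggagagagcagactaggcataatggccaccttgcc

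The ERSE sites of the other chaperone genes are given with 20 bases on either side. Hsp90b1 (minus strand) has an ERSE on its own strand (chr10:86705618-86705676) and one on the opposite strand (chr10:86705513-86705571). Those of Pdia6 (chr12:17266471-17266529) and Dnajc3 (chr14:118937807-118937865) lie on the gene's own strand, which is the plus strand. The one of Creld2 (chr15:88819500-88819558, plus strand) lies on the opposite strand.
Hsp90b1 upstream site: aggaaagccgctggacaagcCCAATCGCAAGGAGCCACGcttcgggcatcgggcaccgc
Hsp90b1 downstream site: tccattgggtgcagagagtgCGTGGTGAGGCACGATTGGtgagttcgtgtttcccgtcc
Pdia6: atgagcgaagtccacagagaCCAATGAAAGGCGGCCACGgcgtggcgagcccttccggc
Dnajc3: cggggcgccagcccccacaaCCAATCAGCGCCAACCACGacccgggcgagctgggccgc
Creld2: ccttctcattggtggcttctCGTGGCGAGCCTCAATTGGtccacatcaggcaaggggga

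The CARE sites are shown in the same way for Trib3, Chac1, Asns, Iars and Yars. Mean levels differed more between the array numbers for Trib3 and Chac1 than for Asns, Iars and Yars. Trib3 (chr2:152344019-152344066) and Asns (chr6:7693205-7693252) are on the minus strand, and Chac1 (chr2:119351029-119351076), Iars (chr13:49682117-49682164) and Yars (chr4:129189886-129189933) on the plus strand. The site lies on the opposite strand in Trib3, Chac1 and Iars and on the gene's own strand in Asns and Yars.
Trib3: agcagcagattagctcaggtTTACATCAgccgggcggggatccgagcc
Chac1: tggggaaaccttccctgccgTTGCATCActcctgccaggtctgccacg
Asns: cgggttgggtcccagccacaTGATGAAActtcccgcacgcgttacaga
Iars: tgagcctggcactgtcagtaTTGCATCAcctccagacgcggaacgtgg
Yars: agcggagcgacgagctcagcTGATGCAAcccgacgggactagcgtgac

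The first comparison was by replicate number, with 2 arrays per number (1 of each clone) and the clone in the model. ER chaperones were lower on number 3 than on numbers 1 and 2, regulators of the ATF4 branch were higher, serine synthesis enzymes were lower and most synthetases showed no difference that passed. A gene counts as risen or fallen on number 3 where limma's F-test over the 3 numbers passed an adjusted p of 0.05 and number 3 was the highest or the lowest. By that rule 12 of the 39 genes fell and 7 rose, and 20 did not pass. Over all 16387 genes 30.1% passed the F-test, 15.5% with number 3 lowest and 14.5% with number 3 highest. Against these shares stand 80.0% of the 10 chaperones and 80.0% of the 5 serine and one-carbon enzymes among the lowest, and 71.4% of the 7 regulators among the highest. Numbers 1 and 2 did not differ for any gene after adjustment (0 of 16387 by limma, 0%, with 832 at an unadjusted p under 0.05, Nupr1 alone among the 39). Without both arrays of number 3, numbers 1 and 2 differed by limma in 0 of the 39 genes and in 19 of all 16387. At an unadjusted p under 0.05 that fit had 4 of the 39 and 1671 of all genes.

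**Figure D1:**
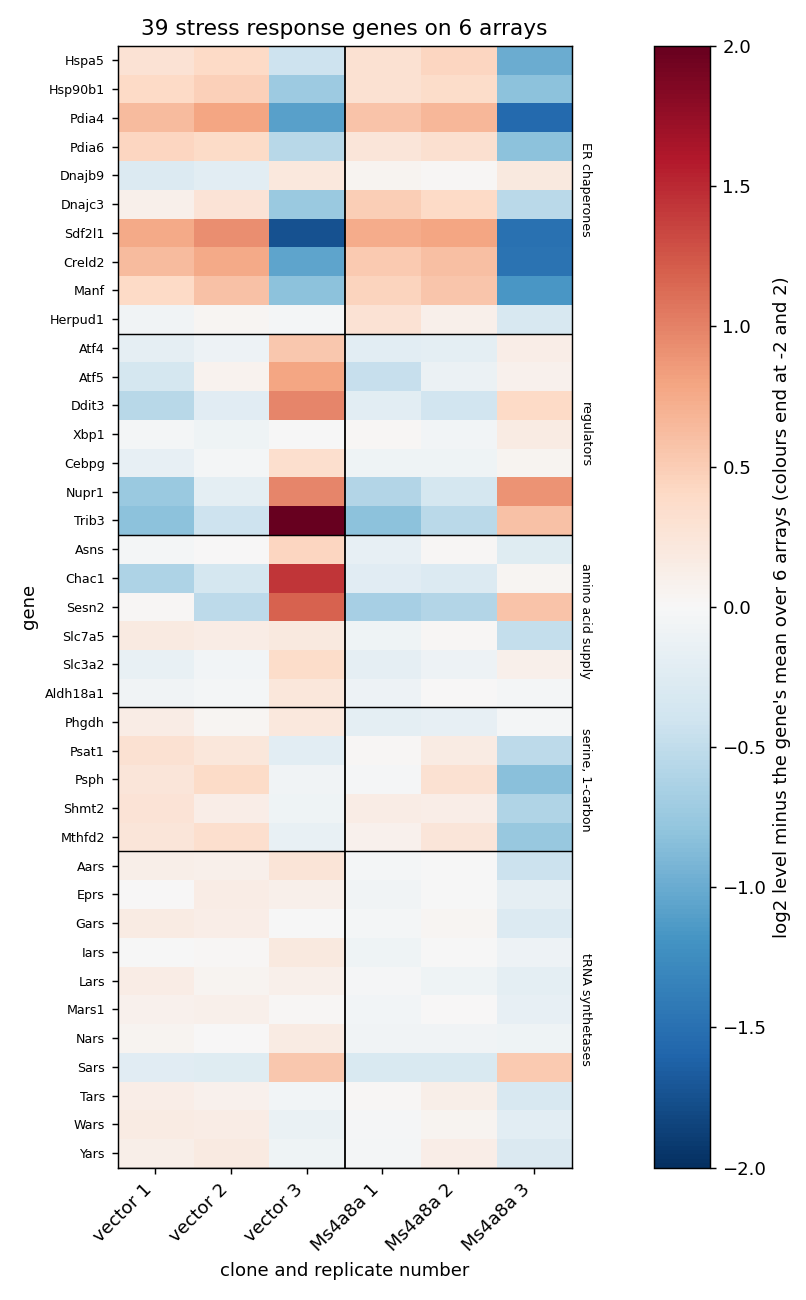
Heat map of the 39 genes (rows, by sub-group) on the 6 arrays (columns), with colour for the log2 level minus the gene's mean over the 6 arrays. The third column of each clone is blue for 8 chaperones, led by Sdf2l1 and Pdia4, and red for Trib3, Nupr1, Ddit3 and Sesn2.

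Of the 10 ER chaperones and folding helpers 8 fell on number 3, by 1.95-fold to 5.37-fold, 0 rose and 2 did not pass. Sdf2l1, a component of ER chaperone complexes, read 10.59, 10.77 and 8.09 on vector arrays 1, 2 and 3, against 10.58, 10.62 and 8.33 on the matching Ms4a8a arrays (log2 levels). It was 5.37-fold lower on number 3 than on the mean of the other numbers (F-test adjusted p = 0.000285). Pdia4, an ER protein disulphide isomerase, read 8.66, 8.82 and 6.94 in the vector clone, against 8.61, 8.69 and 6.47 in the Ms4a8a clone. Both number 3 arrays lay about 2 log2 units below the 4 others, a 3.97-fold difference (adjusted p = 0.000434). The ER stress-inducible protein Creld2 read 10.81, 10.93 and 9.12 in the vector clone, against 10.71, 10.78 and 8.70 in the Ms4a8a clone (3.72-fold, adjusted p = 0.000401). Manf, an ER-resident and secreted neurotrophic factor, read 12.56, 12.74 and 11.33 against 12.60, 12.71 and 11.00 (2.80-fold, adjusted p = 0.000737). In these 4 genes arrays 1 and 2 of a clone lay close together and array 3 lay far below them.

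The other 4 chaperones that passed fell by 1.95-fold to 2.24-fold. Hspa5 (BiP), the main Hsp70 of the ER lumen, read 13.24, 13.35 and 12.55 on the vector arrays, against 13.25, 13.38 and 11.96 on the Ms4a8a arrays. Its 2 number 3 arrays lay below all others and were 0.59 apart, and the fall was 2.07-fold (F-test adjusted p = 0.00699). Hsp90b1 (GRP94), the Hsp90 of the ER, read 13.19, 13.25 and 12.05 against 13.08, 13.15 and 11.96, a 2.24-fold fall (adjusted p = 0.00064). Pdia6, another disulphide isomerase, read 12.92, 12.88 and 11.95 against 12.74, 12.80 and 11.67 (2.04-fold, adjusted p = 0.00118). Dnajc3 (p58IPK), a co-chaperone of BiP, read 8.34, 8.51 and 7.48 against 8.73, 8.63 and 7.69 (1.95-fold, adjusted p = 0.00181). The 5 genes with an ERSE match were among the 8 that fell, but Sdf2l1 and Pdia4, with the largest folds, have windows without one, and Manf has no window in the table. In all 8 both number 3 arrays lay below the 4 others, as they did for 28.4% of all genes.

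Herpud1 and Dnajb9 did not follow the other chaperones. Herpud1, a membrane protein of ER-associated degradation with an ERSE-II and a CARE in its window, read 10.48, 10.59 and 10.50 in the vector clone, against 10.83, 10.65 and 10.22 in the Ms4a8a clone. The number 3 arrays overlapped with the others (adjusted p = 0.363). Dnajb9 (ERdj4), a co-chaperone that guides BiP to IRE1, read 9.10, 9.16 and 9.58 against 9.41, 9.38 and 9.56. Its number 3 arrays lay above the 4 others, as for 22.3% of all genes, with a mean shift of 0.31, and the test was not passed (adjusted p = 0.133). Without Ms4a8a array 3 it passed (adjusted p = 0.0443). When each of the 6 arrays was left out in turn, all 8 calls of the chaperones held in every fit.

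**Figure D2:**
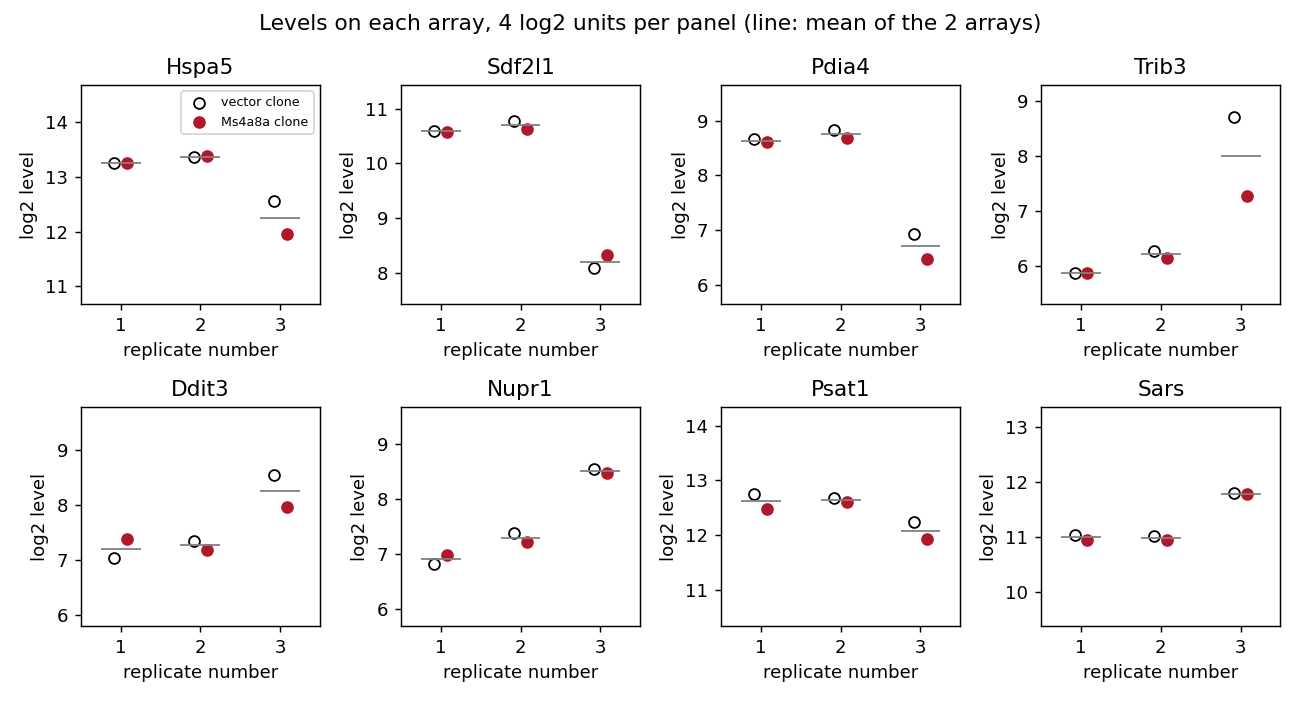
Log2 levels of 8 genes on each array by replicate number, with open circles for the vector clone, filled circles for the Ms4a8a clone and a line at the mean of the 2 arrays; every panel spans 4 log2 units. On number 3, Hspa5, Sdf2l1, Pdia4 and Psat1 are lower and Trib3, Ddit3, Nupr1 and Sars are higher, and for Trib3 the 2 arrays of number 3 are 1.45 apart.

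Of the 7 transcription factors and regulators 5 rose on number 3, 0 fell and 2 did not pass. Trib3, a pseudokinase that is a target and inhibitor of ATF4 and CHOP, read 5.87, 6.27 and 8.72 on the vector arrays, against 5.87, 6.15 and 7.27 on the Ms4a8a arrays. Both number 3 arrays were above the 4 others, 2.65 above the mean of arrays 1 and 2 for the vector clone and 1.26 for the Ms4a8a clone, a mean rise of 3.88-fold (F-test adjusted p = 0.00933). Nupr1, a small stress-induced nuclear protein, read 6.82, 7.38 and 8.54 against 6.98, 7.21 and 8.47 (2.65-fold, adjusted p = 0.000662). The 2 number 3 arrays of Nupr1 were 0.07 apart. Ddit3 (CHOP), the factor that links prolonged ER stress to cell death, read 7.03, 7.35 and 8.56 against 7.38, 7.19 and 7.97 (2.04-fold, adjusted p = 0.0177).

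Atf5 and Atf4 had smaller rises whose calls rested on single arrays. Atf5, a relative of ATF4 that is also under translational control, read 7.81, 8.22 and 8.94 in the vector clone, against 7.69, 8.03 and 8.24 in the Ms4a8a clone. Its Ms4a8a array 3 stood only slightly above vector array 2 (1.57-fold, F-test adjusted p = 0.0218, and 0.0630 without vector array 1). Atf4 read 11.81, 11.89 and 12.54 against 11.79, 11.80 and 12.12, so that both number 3 arrays were highest (1.42-fold, adjusted p = 0.0330). The call was lost without vector array 1, 2 or 3 or Ms4a8a array 2, with adjusted p-values up to 0.114. Cebpg, a C/EBP protein that pairs with ATF4, differed by 0.29 on number 3 (adjusted p = 0.154). Xbp1 differed by 0.12 (adjusted p = 0.502), and all its 6 levels lay between 12.48 and 12.74. The calls of Trib3, Nupr1 and Ddit3 held in each of the 6 fits with 1 array left out.

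Of the 6 measured genes of amino acid supply and other ATF4 targets, Sesn2 alone rose on number 3, 0 fell and 5 did not pass. That is 16.7% risen, close to the 14.5% of all genes. Sesn2, a leucine sensor that restrains mTORC1, read 7.27, 6.74 and 8.43 in the vector clone, against 6.59, 6.67 and 7.82 in the Ms4a8a clone (2.48-fold, F-test adjusted p = 0.00281). Chac1, which degrades glutathione, read 6.62, 6.89 and 8.67 against 7.02, 6.96 and 7.28. Vector array 3 was 1.92 above the mean of its other arrays and Ms4a8a array 3 was 0.29 above its own, and the test was not passed (adjusted p = 0.129). It passed without Ms4a8a array 1 or 3, with an adjusted p down to 0.000751. Slc3a2 (CD98 heavy chain), the partner of amino acid transporters, read 10.83, 10.93 and 11.35 against 10.80, 10.88 and 11.07, with both number 3 arrays highest (adjusted p = 0.0619, and 0.0316 without Ms4a8a array 3). Its transporter partner Slc7a5 (LAT1) differed by -0.21 on number 3 (adjusted p = 0.465). Asns, the asparagine synthetase, differed by 0.14 (adjusted p = 0.671, and 0.0410 without Ms4a8a array 3), and Aldh18a1, the first enzyme of proline synthesis from glutamate, by 0.15 (adjusted p = 0.474).

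The serine and one-carbon enzymes went the other way, with 4 of 5 lower on number 3, 0 higher and 1 that did not pass. Psat1, the aminotransferase of serine synthesis, read 12.75, 12.68 and 12.23 on the vector arrays, against 12.48, 12.61 and 11.93 on the Ms4a8a arrays (1.46-fold lower, F-test adjusted p = 0.0123). Mthfd2, a mitochondrial folate enzyme, read 10.98, 11.07 and 10.59 against 10.81, 10.97 and 9.97 (1.60-fold lower, adjusted p = 0.020). Both had their lowest level on the number 3 array of each clone. Psph, the phosphatase that completes serine synthesis, read 10.37, 10.51 and 10.05 against 10.11, 10.42 and 9.29 (1.61-fold lower, adjusted p = 0.0319, and 0.0717 without Ms4a8a array 2). Shmt2, the mitochondrial serine hydroxymethyltransferase, read 11.99, 11.85 and 11.62 against 11.85, 11.84 and 11.12 (1.43-fold lower, adjusted p = 0.0460). The Shmt2 call was lost without vector array 1 or any 1 of the Ms4a8a arrays, with adjusted p-values up to 0.143. Phgdh, which commits glycolytic carbon to serine, differed by 0.13 on number 3 (adjusted p = 0.476), with its number 3 arrays the highest of each clone but overlapping the others.

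Of the 11 cytosolic tRNA synthetases, Sars alone rose on number 3, 0 fell and 10 did not pass. That is 9.09% risen and 0% fallen, against 14.5% and 15.5% of all genes. The seryl-tRNA synthetase Sars read 11.03, 11.02 and 11.80 in the vector clone, against 10.95, 10.95 and 11.78 in the Ms4a8a clone. Both number 3 arrays lay above the others and were 0.02 apart, a 1.74-fold rise (F-test adjusted p = 0.00194) that held in each fit with 1 array left out. The other 10 differed on number 3 by between -0.28 and 0.06. Those with the lowest F-test adjusted p-values were the tyrosyl enzyme Yars (0.0794), the tryptophanyl enzyme Wars (0.118) and the threonyl enzyme Tars (0.158). Each had both number 3 arrays below the 4 others, as did 28.4% of all genes. Yars read 9.54, 9.60 and 9.33 against 9.38, 9.55 and 9.13. Tars read 10.96, 10.90 and 10.77 against 10.85, 10.94 and 10.51. Of the 10 genes with a CARE core, Nupr1 and Trib3 rose and the other 8 did not pass, namely Herpud1, Asns, Chac1, Aars, Gars, Iars, Tars and Yars. The 5 other genes that rose (Atf4, Atf5, Ddit3, Sesn2 and Sars) have no CARE core in their windows.

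**Figure D3:**
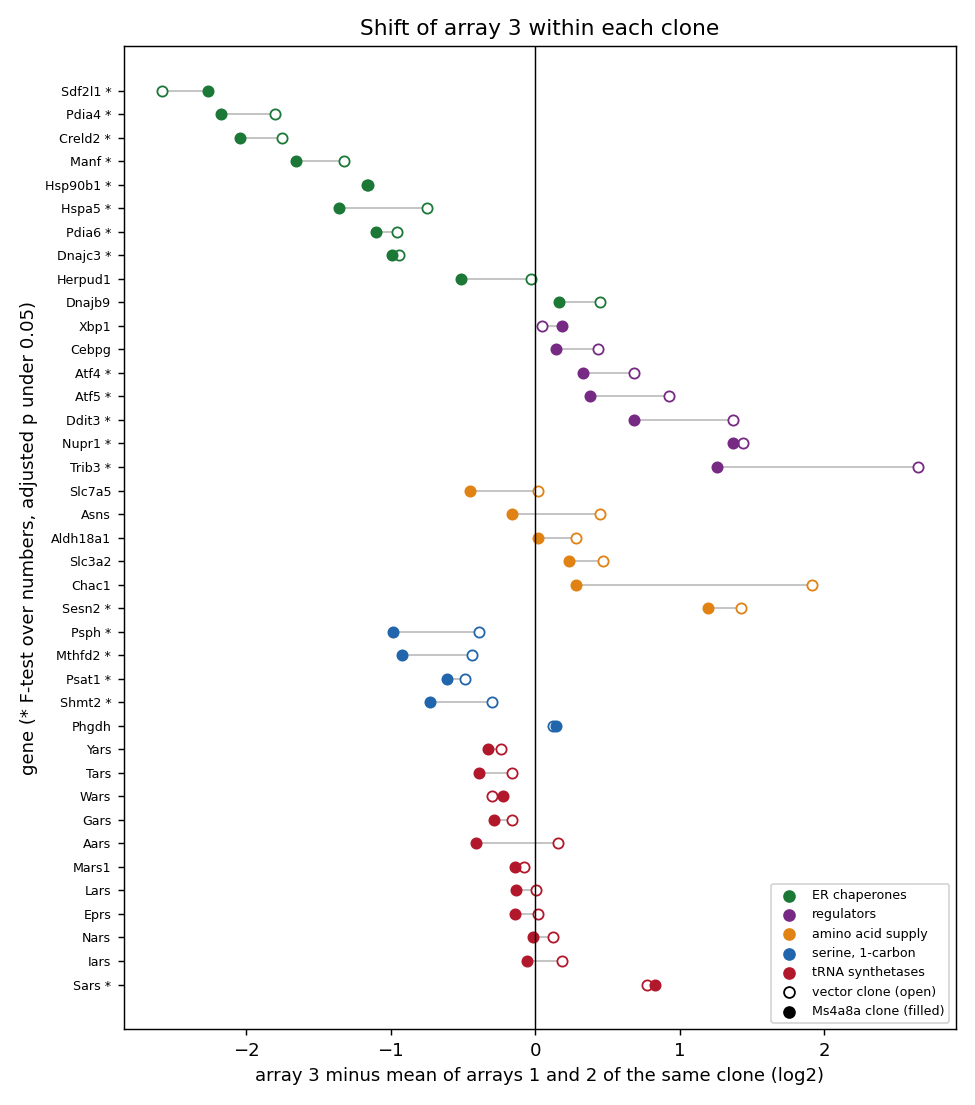
Array 3 minus the mean of arrays 1 and 2 of the same clone (x axis, log2) for each of the 39 genes (y axis, by sub-group), with open circles for the vector clone and filled circles for the Ms4a8a clone; a star marks an F-test adjusted p under 0.05. The chaperones that passed lie between about -0.75 and -2.58 in both clones, Trib3 and Chac1 lie further right in the vector clone, and the synthetases other than Sars lie close to 0.

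The wider pathways were described with lists of other genes. Of 25 other ER sensor, folding and degradation genes 10 fell and 6 rose on number 3, and 9 did not pass. Over all genes 15.5% fell and 14.5% rose. The 6 that rose were Crebrf, Derl1, Edem1, Ero1a, Ero1b and P4hb, so this list moved in both directions. The ER chaperone Hyou1 read 9.87, 9.91 and 8.02 in the vector clone, against 9.70, 9.74 and 7.97 in the Ms4a8a clone (3.51-fold lower, F-test adjusted p = 0.000307), and the disulphide isomerase Pdia3 was 2.95-fold lower (adjusted p = 0.000463). Crebrf, a regulator of the CREB3 family of ER stress factors, read 5.36, 5.22 and 7.74 against 5.74, 5.42 and 7.71 (4.88-fold higher, adjusted p = 0.000326). Of the sensor genes, Eif2ak3 (PERK) read 6.34, 6.28 and 6.04 against 6.50, 6.35 and 6.01 and was 1.27-fold lower, just past the threshold (adjusted p = 0.0499), while Ern1 (IRE1) and Atf6 did not pass, with adjusted p-values of 0.940 and 0.794. Of 28 other ATF4 and integrated stress response genes 10 rose and 2 fell (35.7% and 7.14%, against 14.5% and 15.5% of all genes). Ppp1r15a (GADD34), which directs a phosphatase to eIF2 alpha, read 7.42, 7.49 and 10.04 against 7.49, 7.56 and 9.90 (5.59-fold higher, adjusted p = 0.00022), and the mTORC1 inhibitor Ddit4 was 4.88-fold and the angiogenic factor Vegfa 4.35-fold higher (adjusted p = 0.00022 and 0.000627).

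Other synthetases were read as well. Of 11 other cytosolic synthetase and scaffold genes 5 fell and 2 rose on number 3 (45.5% and 18.2%). Of 16 mitochondrial synthetases 7 fell and 0 rose (43.8% and 0%). Over all genes 15.5% fell and 14.5% rose. The histidyl enzyme Hars read 10.83, 11.07 and 10.12 in the vector clone, against 10.67, 10.82 and 9.88 in the Ms4a8a clone (1.80-fold lower, F-test adjusted p = 0.00157). The synthetase complex scaffold Aimp2 was 1.89-fold lower (adjusted p = 0.00132) and the mitochondrial cysteinyl enzyme Cars2 2.73-fold lower (adjusted p = 0.000968). The difference between these lists and the 11 synthetases was not tested.

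Other genes moved with the number as well. All 12 measured proliferation markers fell on number 3 (100%, against 15.5% of all genes). Their median level was 11.1, 11.1 and 9.85 on the vector arrays, against 10.9, 11.0 and 8.69 on the Ms4a8a arrays. Of the 10 measured macrophage markers 8 rose (80.0%, against 14.5% of all genes). Among them were the Fc receptor gene Fcgr3 (39.3-fold) and Adgre1 (4.94-fold), which encodes F4/80. The part of these differences in the result for the 39 genes was not tested. In bulk RNA a lower share of cells with a transcript and less of it per cell cannot be told apart.

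**Figure D4:**
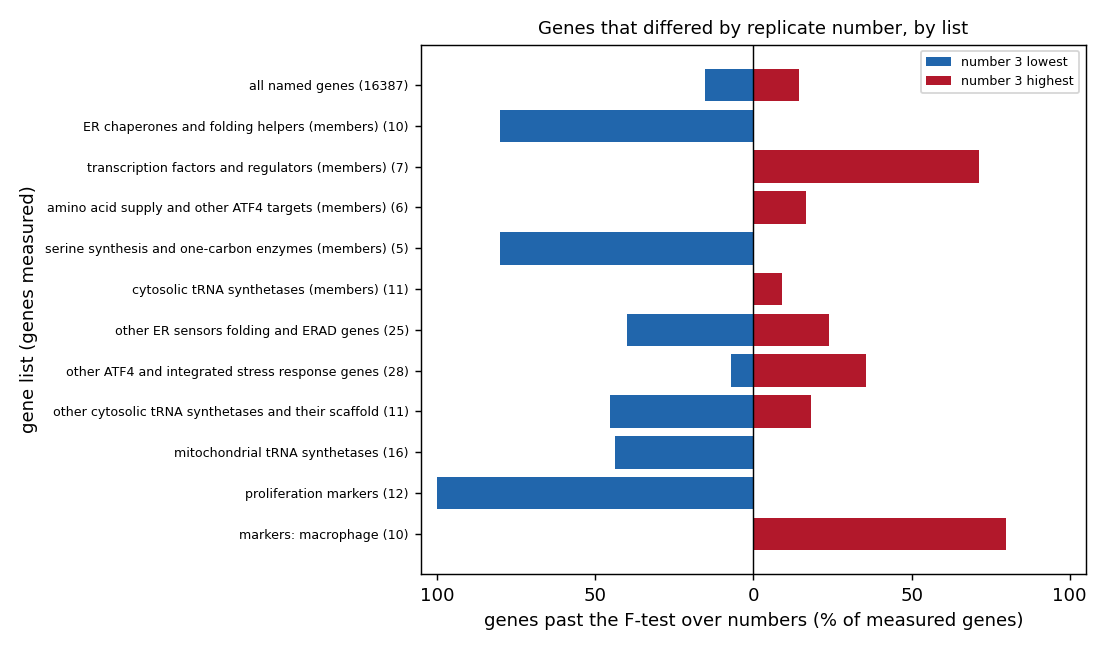
Share of each list's measured genes (x axis, %) that passed the F-test over numbers with number 3 lowest (blue, to the left) or highest (red, to the right), with the list size in brackets. The chaperones and serine enzymes reach 80.0% on the lowest side and the regulators 71.4% on the highest side, against 15.5% and 14.5% for all named genes.

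The second comparison was between the clones, which is the one the study was designed for. No member differed between the clones after adjustment, but small differences lay on the lower side for the Ms4a8a clone in 34 of the 39 genes. By limma 0 of 39 passed (0.0427% of all genes did). This model had 2 of the 39 (Phgdh and Lars) and 524 of all genes at an unadjusted p under 0.05. With the replicate number as a block 0 of 39 passed as well (0.909% of all genes did), with blocked adjusted p-values from 0.201 to 0.946. At an unadjusted p under 0.05 the blocked model had 11 of the 39 and 2181 of all genes. The median difference over the 39 genes, Ms4a8a clone minus vector clone, was -0.17 on the log2 scale, against 0.00 (-0.00488) over all genes, of which 51.6% were negative. By number it was -0.11, -0.08 and -0.28, and 29, 30 and 36 of the 39 were negative. It was -0.09 without Ms4a8a array 3 and -0.08 without both arrays of number 3.

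All 11 synthetases were lower in the Ms4a8a clone, by 0.05 to 0.32 with a median of -0.14, and at numbers 1, 2 and 3 there were 11, 10 and 11 that were lower. In 6 of them (Aars, Eprs, Iars, Lars, Mars1 and Nars) every Ms4a8a array lay below every vector array, as did those of Slc7a5 and Phgdh among the other members. That makes 8 of 39, against 3.99% of all genes, and in 0 of 39 did every Ms4a8a array lie above every vector array, against 3.89%. The leucyl enzyme Lars read 11.13, 11.05 and 11.09 on the vector arrays, against 10.96, 10.90 and 10.80 on the Ms4a8a arrays. It differed by -0.21 with an SE of 0.08 (limma adjusted p = 1.00 without and 0.338 with the block). The alanyl enzyme Aars read 10.03, 10.00 and 10.17 against 9.86, 9.90 and 9.48 (-0.32, SE 0.14, blocked adjusted p = 0.375). Its difference was -0.17, -0.10 and -0.70 at the 3 numbers, so that number 3 carried most of it. The glycyl enzyme Gars differed by -0.18 (SE 0.12, and 0.08 with the replicate block), and its groups overlapped. Among the 11 other cytosolic synthetase and scaffold genes 8 were lower in the Ms4a8a clone (median -0.08), and among the 16 mitochondrial synthetases 6 were lower (median 0.02).

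In the mean over the 3 numbers, every measured gene of serine synthesis and amino acid supply was also lower in the Ms4a8a clone, without passing the test. All 5 serine enzymes were lower at each number, with medians of -0.26, -0.09 and -0.50 at numbers 1, 2 and 3. Of the 6 amino acid supply genes 5, 3 and 6 were lower, with medians of -0.08, -0.02 and -0.64, so that number 3 carried most of the difference. Phgdh read 11.24, 11.13 and 11.31 on the vector arrays, against 10.89, 10.92 and 11.05 on the Ms4a8a arrays, with no overlap (-0.28 with an SE of 0.09, limma adjusted p = 1.00 without and 0.201 with the block). Psph differed by -0.37 (SE 0.31) and Mthfd2 by -0.30 (SE 0.29), of which -0.77 and -0.62 stood at number 3. With the replicate block the errors of Psph and Mthfd2 were 0.14 and 0.12. The 5 enzymes had a median difference of -0.28. Slc7a5, whose transporter takes up large neutral amino acids, read 10.68, 10.65 and 10.69 against 10.41, 10.53 and 10.02, with no overlap (-0.35, SE 0.15, blocked adjusted p = 0.294). Sesn2 differed by -0.45 (SE 0.54) and Chac1 by -0.31 (SE 0.55), and with the replicate block the errors were 0.13 and 0.33. The Chac1 difference was 0.40 and 0.07 at numbers 1 and 2 and -1.39 at number 3, and it turned to 0.33 without vector array 3.

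**Figure D5:**
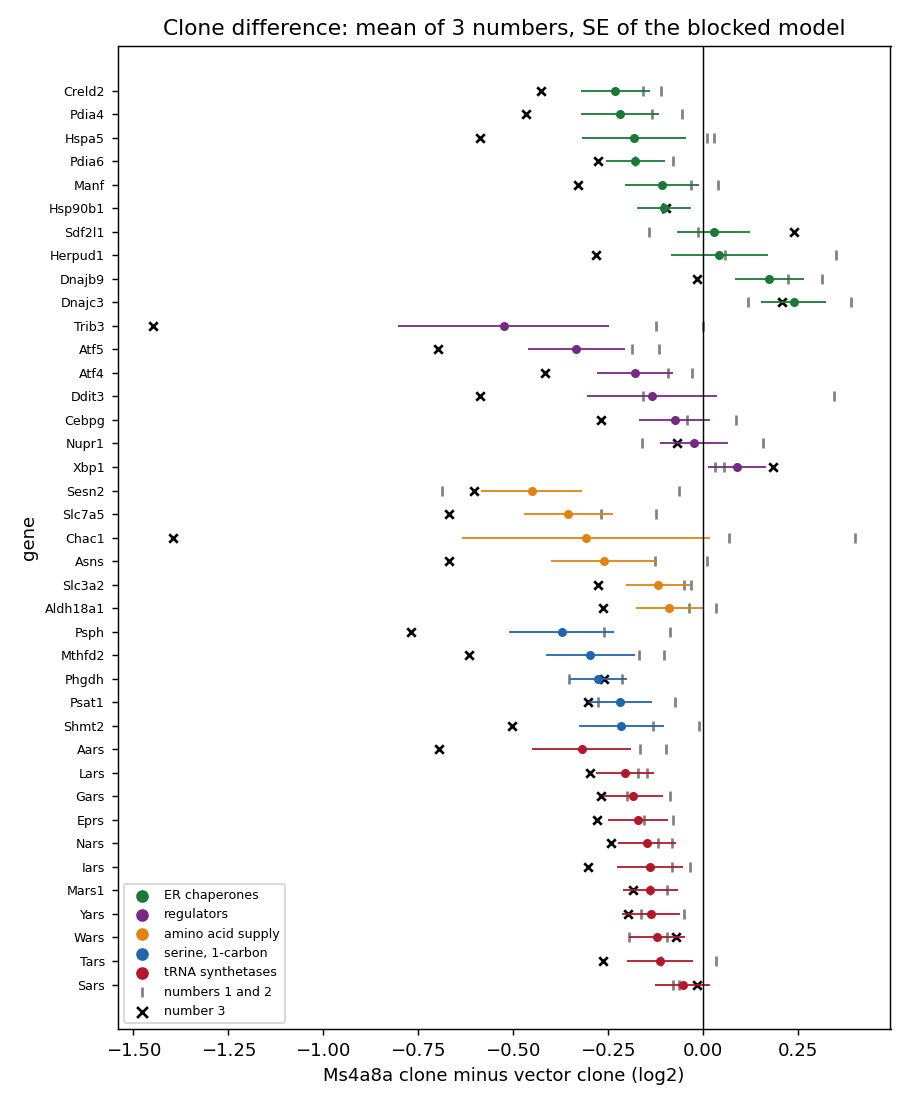
Ms4a8a clone minus vector clone (x axis, log2) for each gene (y axis, by sub-group), with dots for the mean over the 3 numbers, bars for the SE of the model with the replicate block, grey ticks for numbers 1 and 2 and crosses for number 3. Nearly all dots lie left of 0, and the crosses of Trib3 (-1.45) and Chac1 (-1.39) lie far from the ticks.

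The regulators and chaperones did not differ between the clones in a common direction at all 3 numbers. Trib3 differed by -0.52 (SE 0.82, and 0.28 with the replicate block), with 0.00 (-0.00098), -0.12 and -1.45 at numbers 1, 2 and 3. Atf5 differed by -0.33 (SE 0.31) and Atf4 by -0.18 (SE 0.22), with -0.70 and -0.42 at number 3. With the replicate block the errors of Atf5 and Atf4 were 0.13 and 0.10. The regulators had a median difference of 0.05, -0.12 and -0.42 at the 3 numbers, and 3, 6 and 6 of the 7 were lower in the Ms4a8a clone. Among the chaperones 6 of 10 were lower in the Ms4a8a clone (median -0.11), and the sizes were small against their fall on number 3. At numbers 1, 2 and 3 there were 5, 6 and 8 of the 10 that were lower. Dnajc3 differed by 0.24 (SE 0.39), Creld2 by -0.23 (SE 0.75) and Pdia4 by -0.22 (SE 0.79), and with the replicate block the errors were 0.09, 0.09 and 0.10. Each number 3 difference rests on 1 array per clone.

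Beyond the 39 genes, 2 of the 28 other ATF4 and integrated stress response genes passed in the blocked model, and both were lower in the Ms4a8a clone. Cth, the cystathionine gamma-lyase that makes cysteine, read 6.84, 6.81 and 7.34 on the vector arrays, against 6.14, 5.94 and 6.23 on the Ms4a8a arrays. The groups did not overlap, and the difference was -0.89, with an SE of 0.18 and a limma adjusted p of 0.685 without the block, and an SE of 0.10 and an adjusted p of 0.0216 with it. Ddit4 differed by -0.53 (blocked SE 0.07, blocked adjusted p = 0.0436, limma adjusted p without the block 1.00). None of the other ER, cytosolic synthetase or mitochondrial synthetase genes passed in either model.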

How the data were processed

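RNA of each clone was hybridised as biotinylated cRNA to 3 Affymetrix arrays, per the labels' protocols. The deposited values were on a log2 scale, 1 per probe set and array, and all 6 columns held the same sorted values, as quantile normalisation gives; no source used here gives the summary method or software. Of 17370 probe sets, 16387 had 1 gene symbol (0 had several), and 16358 of these were matched by number to RefSeq genes of GRCm38.p6, which supplied current symbols. There is 1 probe set per gene, so no averaging was needed. Precision is limited by the number of arrays.

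All tests were run with limma 3.58.1 (lmFit and eBayes, R 4.3.3) on all 16387 named genes, two-sided, without a filter or offset, and p-values were adjusted by Benjamini-Hochberg across the table (threshold 0.05). The main clone model ignored the replicate number, which its alternative used as a block. Number differences were tested with the clone in the model, by an F-test over the 3 numbers and by pairwise contrasts. Same-numbered arrays deviated together from their clone means (correlations across genes of 0.709, 0.809 and 0.865 for numbers 1, 2 and 3), above the limit of 0.1 for every pair, so blocked values are given. Arrays of unlike number correlated as well for numbers 1 and 2 (0.713 for vector 1 with Ms4a8a 2, 0.617 for vector 2 with Ms4a8a 1), and number 3 correlated negatively with both (-0.732 to -0.845), so the check separates number 3 but does not show that numbers 1 and 2 pair. The other alternatives were filters on low genes, another centring, array weights, a trended robust prior, and leaving out arrays. The fits were also run on simulated arrays with differences planted in some genes. These arrays lacked the wide shift of number 3, so they do not show how the clone model without the block behaves here.

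The members and lists were chosen with earlier results of these data known, number 3 standing apart included. Members were given array values where they passed in either comparison or had 1 of the 3 largest clone differences or number ranges of their sub-group, and at most 3 genes were named per other list by smallest p. Eif2ak3, Ern1, Atf6, the array values of Herpud1 and Dnajb9 and the level ranges of Fcgr3, Adgre1 and Itgam were added after their values were seen. The names Derl1, Edem1, Ero1a, Ero1b and P4hb were also added after their values were seen.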

Additional observations from a re-analysis of the deposited data

Results flagged for a closer look

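In 5 of the 39 genes array 3 moved in opposite directions in the clones, up against both other vector arrays and down against both other Ms4a8a arrays. The difference between the clones in this shift was not tested, since each rests on 1 array. Relative to the mean of arrays 1 and 2 of its clone, array 3 differed for Asns by 0.45 in the vector clone, against -0.16 in the Ms4a8a clone. The same values were 0.16 and -0.41 for Aars, 0.19 and -0.0586 for Iars, 0.12 and -0.0166 for Nars, and 0.0234 and -0.45 for Slc7a5. Opposite shifts of this kind in either direction were seen in 12.4% of all 16387 genes and in 12.8% of the 39. In the direction of these 5 genes they were seen in 876 of all genes (5.35%), and 1149 ran the other way, as 0 of the 39 did.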

How the results depend on the processing

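In the comparison of the clones 0 of the 39 genes passed under the main model, the replicate block and every other alternative run. The count over all genes was 7, and 149 with the replicate block, 47 with array weights, 12 with a trended robust prior and 1 when genes below the median level were dropped. It was between 0 and 8 with 1 array left out, 0 without both arrays of number 1 or of number 2, and 147 without those of number 3. The replicate block changed no call among the 39 genes. In the comparison of the numbers, 0 of the 39 genes and 19 of all genes passed without both arrays of number 3. With 1 array left out between 16 and 22 of the 39 passed, and 15 of the 19 genes called with all arrays passed in all 6 fits. Over all genes the count was lower in each of those fits than with all arrays, and each such fit leaves 1 array for a number. Without the clone in the model 13 of the 39 and 3944 of all 16387 genes passed, against 19 and 4938 with it.

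Clone differences that did not pass changed sign in 14 alternative values and kept it in 211, over the 15 genes whose difference is given. The 211 include the replicate block, the filters on low genes and the trended robust prior, which cannot change the size of a difference. With 1 array left out they ranged from -0.82 to 0.51 for Pdia4, from -0.81 to 0.45 for Creld2, from -0.0742 to 0.57 for Dnajc3, from -0.31 to 0.0488 for Atf4, from -1.07 to 0.36 for Trib3, from -0.70 to 0.33 for Chac1, from -0.85 to 0.0231 for Sesn2 and from -0.49 to 0.00977 for Mthfd2. Chac1 was 0.16 with array weights and 0.23 without both arrays of number 3. The direction on number 3 turned without Ms4a8a array 3 for Slc7a5 (adjusted p = 0.910), Aars (0.499) and Lars (0.775), none of which passed with all arrays. Their adjusted p-values with 1 array left out ran from 0.0505 to 0.910 for Slc7a5, from 0.0606 to 0.840 for Aars and from 0.489 to 0.939 for Lars. The causes of these changes were not tested.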
